A study of Mus musculus with 10 samples.

Results

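Transcript levels of 10 immediate early genes, Fos, Fosb, Jun, Junb, Egr1, Egr2, Egr3, Atf3, Ier2 and Socs3, were examined in cardiomyocytes, the contractile muscle cells of the heart, taken from mouse atria and ventricles. The genes were chosen by name as early targets of growth, stress and cytokine signals that are also known to be induced when tissue is dissociated into cells. All 10 were found among the 25239 gene symbols of the expression tables. The libraries were 5 from atrial cardiomyocytes and 5 from ventricular cardiomyocytes, and all 10 came from mice labelled wild type. Age, sex, strain, the way the cells were isolated and the number of animals behind a library were not given in the sources used here. RNA sequencing of total RNA gave the values, and the study set atrial against ventricular cells.

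Immediate early genes are transcribed within minutes of a stimulus from factors that are already present in the cell, without new protein synthesis. Serum response factor with its ternary complex partners and CREB carry MAP kinase and calcium signals to the Fos, Jun and Egr genes, and STAT3 carries cytokine signals to Socs3. In the heart these genes respond to stretch, to hormones and to injury, and enzymatic dissociation of many tissues is known to induce them.

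Libraries fell into sets that the labels do not name and that cross the chambers. Replicates 1 and 2 of both chambers held 1790402 to 4445287 reads, with 0.215% to 0.480% of them from the ribosomal RNA precursor Rn45s. Replicates 3 to 5 held 11163805 to 12842635 reads, with 23.1% to 29.8% from Rn45s. The cardiomyocyte markers reached 312933 to 797872 summed normalized reads in atrial and 325124 to 656517 in ventricular libraries, so the labelled cell type was present in each. The 5 atrial markers were all higher and the 4 ventricular markers all lower in atrial cells. Values below are normalized reads, that is read counts divided by a size factor for each library, and 3 reads correspond to 1.70 to 10.4 normalized reads depending on the library.

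Atrial cardiomyocytes held more Socs3, Atf3 and Egr2 RNA than ventricular cardiomyocytes. These 3 of the 10 genes passed the test between chambers (limma, adjusted p below 0.05 over 12422 genes), against 8.12% of all tested genes that were higher in atrial cells. None of the 10 was lower in limma, against 6.56% of tested genes, while Egr3 had an unadjusted p below 0.05 and was called lower by edgeR and by DESeq2. The median log2 difference over the 10 genes was 0.91, atrial minus ventricular, against -0.01 over all tested genes, and 9 of 10 estimates were above 0. Without atrial replicate 1, 6 were higher (Fos, Fosb and Junb besides these 3), and without ventricular replicate 2, 4 were higher (Junb besides) and Egr3 was lower. Leaving out ventricular replicate 4 left 2 (Egr2 and Socs3), and leaving out any of the other 7 libraries left Socs3 alone. Over these fits 1365 to 1938 of the 12422 tested genes were called in either direction, against 1824 with all libraries. With the replicate number as a block, 7 were higher (16.3% of tested genes) and Egr3 was lower (16% of tested genes). This block assumes that same-numbered libraries are paired, which the labels do not state. With library set as a term, 5 were higher (Fos, Fosb, Egr2, Atf3 and Socs3, against 16% of tested genes) and Egr3 was lower (15.8%). In all 5 same-numbered pairs the atrial value was the higher for 4 genes (Fos, Fosb, Egr2 and Socs3), against 20.2% of tested genes. In a bulk sample, more expressing cells and more RNA per cell cannot be told apart.

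**Figure D1:**
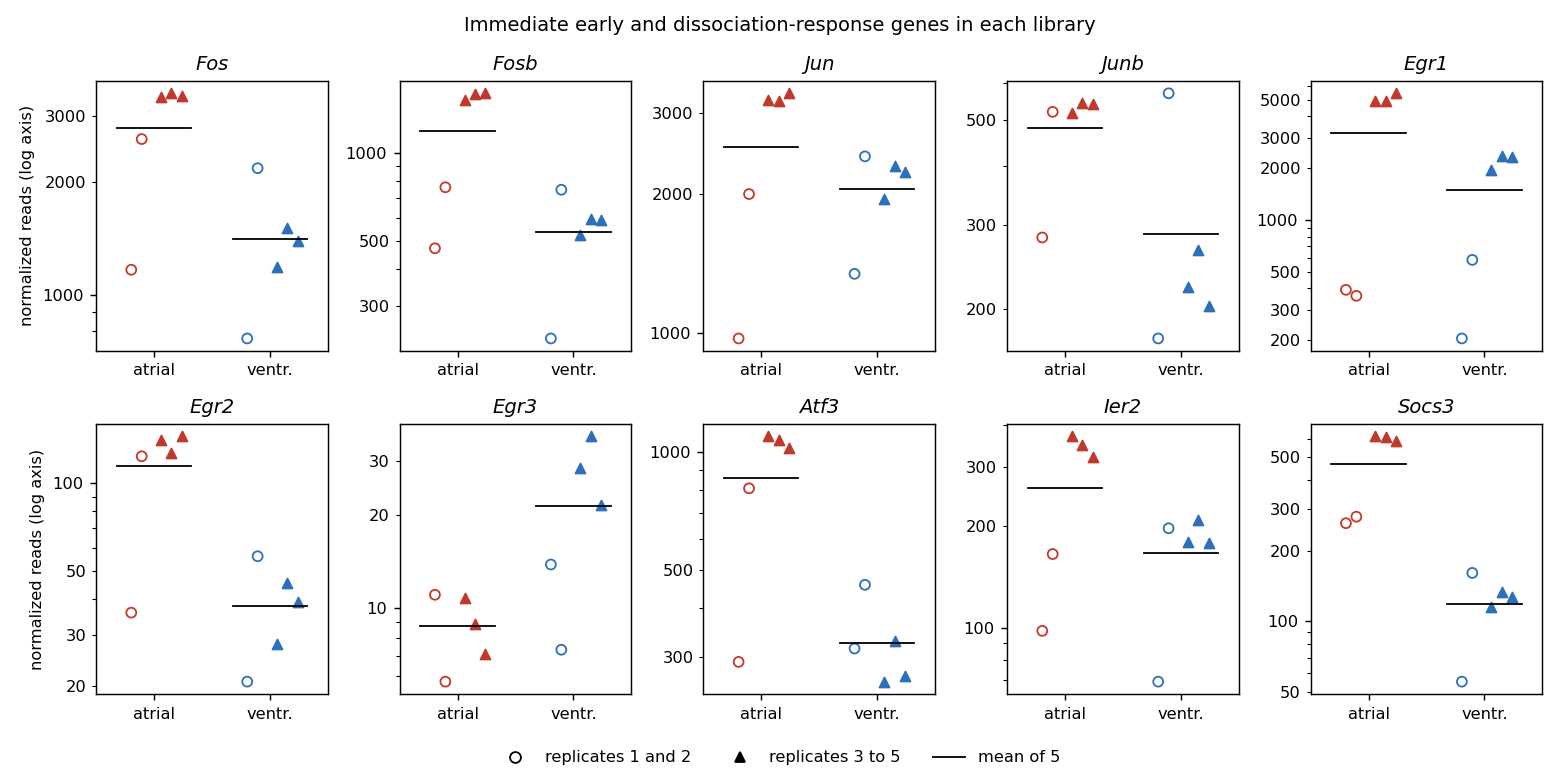
Normalized reads of each gene in each library, atrial to the left and ventricular to the right, on a log axis, with replicates 1 and 2 marked apart from replicates 3 to 5. Atrial replicates 3 to 5 form a tight group in each panel but that of Egr3, while replicates 1 and 2 lie apart from each other for most genes.

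The AP-1 genes come first, since their products pair to form the transcription factor AP-1. Fos encodes a leucine zipper protein that binds DNA only with a Jun partner. It lies on the plus strand at chr12:85473890-85477273 (GRCm38, GENCODE M21, introns included). Its level was 1167, 2607, 3367, 3455 and 3399 normalized reads in atrial replicates 1 to 5, against 765, 2179, 1187, 1506 and 1394 in ventricular replicates 1 to 5. Atrial replicate 1 lay inside the ventricular range and the other atrial values lay above it, and in each same-numbered pair the atrial value was the higher. Means were 2799 ± 976 in atrial and 1406 ± 517 in ventricular cells (SD, n = 5 each), a fold of 1.99. The log2 difference of 0.97 ± 0.34 (SE) missed the threshold (limma, adjusted p = 0.0907) and passed it with the replicate block (adjusted p = 0.00667).

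Fosb encodes a further AP-1 protein that pairs with Jun proteins. Its 472, 763, 1518, 1586 and 1600.0 normalized reads in atrial replicates 1 to 5 stood against 232, 748, 525, 596 and 591 in ventricular replicates 1 to 5. Only atrial replicate 1 lay within the ventricular range, and each same-numbered pair again had its higher value in atrial cells. The log2 difference was 1.08 ± 0.40 (limma, adjusted p = 0.108, and 0.0101 with the replicate block). Fosb lies at chr7:19302696-19310051 on the minus strand.

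Jun encodes the main partner of Fos. It had 972, 1999, 3196, 3184 and 3306 normalized reads in atrial replicates 1 to 5, against 1342, 2413, 1952, 2302 and 2237 in ventricular replicates 1 to 5. The atrial values of replicates 3 to 5 lay above all ventricular values, while atrial replicate 1 was the lowest of the 10 libraries. Jun differed by 0.20 ± 0.33 on the log2 scale (limma, adjusted p = 0.801), and the replicate block did not bring a call (adjusted p = 0.464). The gene lies at chr4:95049034-95052222 on the minus strand, and the antisense gene Junos overlaps it.

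Junb encodes a Jun relative that can limit Jun activity. Its level was 283, 521, 518, 544 and 542 normalized reads in atrial replicates 1 to 5, against 173, 570.35, 222, 267 and 203 in ventricular replicates 1 to 5. Ventricular replicate 2 was the highest of all 10 libraries, and the other 4 ventricular values lay below every atrial value. The log2 difference of 0.85 ± 0.31 missed the threshold (limma, adjusted p = 0.105) and passed it with the replicate block (adjusted p = 0.0220). Junb, at chr8:84974484-84978718, overlaps the end of Prdx2 on the other strand, which averaged 2003 normalized reads, and without a stated strand setting reads in the shared stretch cannot be assigned with certainty. Prdx2 itself had a log2 difference of -0.30 (limma, adjusted p = 0.0809).

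Atf3 encodes a stress-induced factor of the CREB family that pairs with Jun proteins. It had 291, 809, 1098, 1076 and 1025 normalized reads in atrial replicates 1 to 5, against 315, 458, 259, 329 and 267 in ventricular replicates 1 to 5. Atrial replicate 1 lay within the ventricular range and the other 4 atrial values lay above it. Atf3 averaged 860 ± 338 in atrial and 326 ± 79.9 in ventricular cells (SD, n = 5 each), a fold of 2.64. It differed by 1.29 ± 0.35 on the log2 scale (adjusted p = 0.0295, limma). The call was lost when any of 8 single libraries was left out, all but atrial replicate 1 and ventricular replicate 2, with adjusted p of 0.0512 to 0.0769. Atf3 spans chr1:191170296-191218039 on the minus strand.

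The EGR genes encode zinc finger factors that bind GC-rich sites in promoters. Egr1, at chr18:34859823-34864984 on the plus strand, had 392, 361, 4898, 4941 and 5453 normalized reads in atrial replicates 1 to 5, against 204, 585, 1945, 2364 and 2319.7 in ventricular replicates 1 to 5. Its level was set apart by replicate number more than by chamber, since all values of replicates 1 and 2 lay below all values of replicates 3 to 5. The chamber means of 3209 ± 2595 in atrial and 1484 ± 1016 in ventricular cells (SD, n = 5 each) had overlapping ranges. Its log2 difference between chambers was 0.77 ± 0.998 (limma, adjusted p = 0.733, and 0.103 with the replicate block).

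Egr2, known from nerve myelination and hindbrain patterning, was low and atrial-biased. It had 35.9, 124, 141, 127 and 145 normalized reads in atrial replicates 1 to 5, against 20.8, 56.1, 27.9, 45.4 and 38.9 in ventricular replicates 1 to 5. Atrial replicate 1 was the only atrial value within the ventricular range, and the atrial value was the higher in each same-numbered pair. Egr2 averaged 115 ± 44.9 in atrial and 37.8 ± 14.0 in ventricular cells (SD, n = 5 each), a fold of 3.03. Its log2 value was higher by 1.50 ± 0.40 (adjusted p = 0.0295, limma). This call was lost on leaving out any of 7 single libraries: atrial replicate 2, 3, 4 or 5, or ventricular replicate 1, 3 or 5. The adjusted p was then 0.0550 to 0.0777.

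Egr3, known from muscle spindles, was the lowest of the 10 genes and ran the other way. Its 11.03, 5.76, 10.8, 8.84 and 7.08 normalized reads in atrial replicates 1 to 5 came from 8, 4, 19, 15 and 11 reads. The 13.8, 7.31, 28.5, 36.1 and 21.6 normalized reads in ventricular replicates 1 to 5 came from 4, 3, 46, 54 and 35 reads. Each same-numbered pair had its higher value in ventricular cells, but the ranges overlapped. The gene passed the filter of a mean of 10 normalized reads only through its ventricular values, since the atrial mean was 8.70. The log2 difference of -1.06 ± 0.41 missed the threshold (limma, adjusted p = 0.124) and passed it with the replicate block (adjusted p = 0.0375). Egr2 lies at chr10:67535475-67542188 and Egr3 at chr14:70077203-70082614, both on the plus strand.

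Ier2 encodes a small nuclear protein and sits on chr8:84661331-84662852 on the minus strand. It had 97.9, 166, 369.8, 349 and 321 normalized reads in atrial replicates 1 to 5, against 69.2, 197, 179.7, 208 and 179 in ventricular replicates 1 to 5. Atrial replicates 3 to 5 lay above every ventricular value and atrial replicates 1 and 2 within the ventricular range. Its log2 difference of 0.57 ± 0.42 missed the threshold (limma, adjusted p = 0.462) and passed it with the replicate block (adjusted p = 0.0376).

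Socs3 encodes an inhibitor of JAK kinases that closes the feedback loop of gp130 cytokine receptors. It lies at chr11:117966079-117970047 on the minus strand. Its level was 262, 279, 613, 608.5 and 586 normalized reads in atrial replicates 1 to 5, against 55.4, 161, 115, 133 and 127 in ventricular replicates 1 to 5. Every atrial value lay above every ventricular value, which held for 1 of the 10 genes and, in either direction, for 14.4% of tested genes. Socs3 averaged 470 ± 182 in atrial and 118 ± 38.9 in ventricular cells (SD, n = 5 each), a fold of 3.97. On the log2 scale it was higher by 1.96 ± 0.34 (adjusted p = 0.00290, limma). It passed whichever single library was left out, with adjusted p of 0.00245 to 0.0101. An exact two-sided permutation test over all 252 labelings gave 0.00794, the smallest p they allow, unadjusted for the 10 genes.

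**Figure D2:**
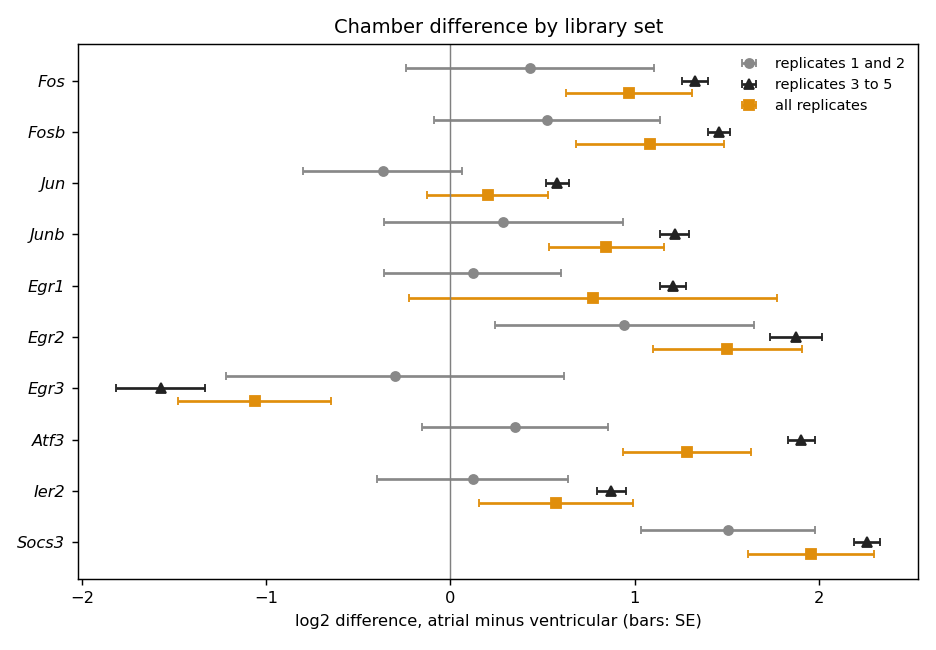
Log2 difference between chambers, atrial minus ventricular, for each gene over all libraries, within replicates 1 and 2 and within replicates 3 to 5, with bars of 1 SE. Socs3 lies farthest to the atrial side in each set, and Egr3 lies on the ventricular side.

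The sequences before annotated RefSeq transcript starts were searched for the motifs of the factors that act on these genes, and 3 of them are printed to show where such motifs lie. RefSeq (GRCm38.p6) gave a window for 7 of the 10 genes, and 250 bases upstream of each RefSeq start were searched on both strands. TGACG, the core of the CRE bound by CREB and ATF proteins, was found for 5 of these 7 genes (Fos, Fosb, Junb, Egr2 and Atf3) and in 17.8% of all 32851 windows. The CArG box, the site of serum response factor, was found for Egr2 and in 1.47% of windows. TTCNNNGAA, the STAT site, was found for Socs3 and in 7.02% of windows, and the AP-1 site TGANTCA for none of the 7 and in 6.75% of windows. A gene was counted if any of its windows held the motif, while the shares are over single windows. Genes with several windows have more chances, so counts and shares are not directly comparable. The searched motifs do not overlap each other in the printed windows. Capitals mark TGACG in Fos, the CArG box in Egr2 and TTCNNNGAA in Socs3. In Fos (chr12:85473640-85473889, plus strand) TGACG begins 129 and 66 bases before the start. In Egr2 (chr10:67537619-67537868, plus strand, 1 of 5 annotated windows, of which 4 hold the motif) the CArG box begins 72 bases before it. In Socs3 (chr11:117969367-117969616, minus strand) the STAT motif begins 154 bases before it. The Egr2 and Socs3 windows lie inside the gene spans given above, since GENCODE lists other transcripts of both genes that start farther upstream.
Fos: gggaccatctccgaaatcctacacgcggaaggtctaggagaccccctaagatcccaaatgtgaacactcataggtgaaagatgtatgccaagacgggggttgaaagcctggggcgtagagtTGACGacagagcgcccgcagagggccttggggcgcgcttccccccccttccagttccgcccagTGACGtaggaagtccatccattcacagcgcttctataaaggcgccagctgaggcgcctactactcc
Egr2: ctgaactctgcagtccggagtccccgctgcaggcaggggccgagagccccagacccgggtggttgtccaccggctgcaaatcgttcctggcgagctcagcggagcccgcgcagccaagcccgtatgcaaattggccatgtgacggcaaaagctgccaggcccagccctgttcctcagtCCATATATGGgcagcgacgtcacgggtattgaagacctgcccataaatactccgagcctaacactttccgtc
Socs3: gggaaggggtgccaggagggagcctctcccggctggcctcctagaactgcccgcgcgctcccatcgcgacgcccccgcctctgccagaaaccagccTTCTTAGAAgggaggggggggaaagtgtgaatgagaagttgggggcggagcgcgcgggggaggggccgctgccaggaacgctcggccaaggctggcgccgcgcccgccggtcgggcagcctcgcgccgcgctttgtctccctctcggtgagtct

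Per kilobase of exon, the order of the genes was similar in both chambers. The length of a gene was the union of all its GENCODE M21 exons. The annotation used for counting was not given, and other lengths could change the order. On this scale Fos came to 1190.0 normalized reads per kb in atrial cells, followed by Jun at 794, Egr1 at 716 and Atf3 at 399. Junb, Fosb, Ier2 and Socs3 lay between 209 and 163 in atrial cells, and Egr2 at 33.7 and Egr3 at 1.97 came last. In ventricular cells Jun led with 643 and Fos followed with 598. After them came Egr1 at 331, Atf3 at 151, Junb at 125, Ier2 at 109.5, Fosb at 86.2, Socs3 at 40.9, Egr2 at 11.1 and Egr3 at 4.87. Fos stood above Jun in 5 of 5 atrial libraries, and Jun above Fos in 4 of 5 ventricular libraries. Neighbours in the order had overlapping ranges except Socs3 and Egr2 in both chambers and Egr2 and Egr3 in atrial cells.

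In replicates 3 to 5 the genes other than Egr3 were higher in atrial cells, and none of the 10 passed the test in replicates 1 and 2, where 2 libraries stand against 2. Within replicates 3 to 5, the atrial values lay above the ventricular values for 9 genes, against 29.5% of tested genes, and below them for Egr3, against 29.1%. The 9 genes passed limma there, against 26.2% of tested genes higher, and so did Egr3, against 26.6% lower. Egr3 had 11 to 19 reads in these atrial libraries and was tested only because of its ventricular values. Log2 differences in this set were 1.33 for Fos, 1.46 for Fosb, 0.58 for Jun, 1.22 for Junb, 1.91 for Atf3, 1.21 for Egr1, 1.88 for Egr2, -1.57 for Egr3, 0.87 for Ier2 and 2.26 for Socs3. Within replicates 1 and 2, none of the 10 passed limma, against 5.14% of tested genes, and 1 had an unadjusted p below 0.05. Socs3 was the only gene of the 10 whose values did not overlap there (48.1% of tested genes). Its log2 difference was 1.51 (limma, adjusted p = 0.146), and the others ranged from -0.37 for Jun to 0.94 for Egr2.

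For most of the 10 genes the spread in the deeper atrial libraries was close to what counting alone gives. Atrial replicates 3 to 5 had a coefficient of variation of 1.30% to 20.9% per gene, with a median of 1.21 times the counting error, and 9 of 10 genes stayed below 2 times it. Egr1, at 5.58 times, was the exception. Over 12324 to 12329 genes the same libraries differed beyond counting error. The chi-square per gene was 14.8 for atrial replicates 3 and 4, 15.4 for atrial replicates 3 and 5 and 2.24 for atrial replicates 4 and 5. It is a squared measure over many genes and is not on the scale of the median ratio above. The same median was 2.38 in ventricular replicates 3 to 5, 5.85 in atrial replicates 1 and 2, and 5.25 in ventricular replicates 1 and 2. The labels do not say whether replicates of a chamber are separate animals or cultures, so p-values measure the spread between libraries, which may be technical.

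Several of the genes were lower in replicates 1 and 2 than in replicates 3 to 5 of atrial cells, and fewer in ventricular cells. In atrial cells 6 of 10 were lower in replicates 1 and 2 (22.5% of tested genes), namely Egr1, Ier2, Fosb, Jun, Socs3 and Atf3. In ventricular cells 2 of 10 were lower, Egr1 and Egr3, which is not above the 26.5% of all tested genes. Egr3 had 4 and 3 reads in ventricular replicates 1 and 2 and was tested only because of its values in ventricular replicates 3 to 5. With replicate 1 or 2 of a chamber left out, the other stands alone in its group, so calls are not read there. Over the fits that leave out 1 library, the atrial difference of Egr1 ran from -3.81 to -3.70. That of Socs3 ran from -1.20 to -1.11, that of Atf3 from -1.87 to -0.40 and that of Jun from -1.73 to -0.69. The Atf3 call was lost without atrial replicate 3 or 4, and the Egr3 call in ventricular cells without ventricular replicate 3 or 4. In ventricular cells the difference ran from -3.42 to -1.91 for Egr1, from -1.16 to 0.36 for Socs3 and from -0.40 to 1.31 for Junb. Without overlap, replicates 1 and 2 lay below replicates 3 to 5 for 8 genes in atrial cells (33.8% of tested genes) and for 2 in ventricular cells (35.1%). With all libraries none was called higher in either chamber, against 17.9% of tested genes in atrial and 21.2% in ventricular cells, and none by edgeR, by DESeq2 or at an unadjusted p below 0.05. The median log2 difference, replicates 1 and 2 minus replicates 3 to 5, was -1.14 in atrial cells, against -0.03 over all tested genes, and -0.33 in ventricular cells, against -0.04. On simulated data with these depths and the same spread in every library, limma made more false calls between library sets than its threshold allows. edgeR was not run on the simulated data. On the recovered reads it called the same 6 genes in atrial cells and the same 2 in ventricular cells as limma. DESeq2 called the same 6 in atrial cells and Egr1 alone in ventricular cells.

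Marker genes differed between library sets as well, as did depth and ribosomal RNA (limma, mean over chambers). Of all tested genes, 26.1% were higher and 31.2% lower in replicates 1 and 2. Fibroblast markers were lower for 6 of 7. They summed to 13845 to 21755 in atrial replicates 1 and 2 against 30905 to 32936 in atrial replicates 3 to 5, and to 5775 to 14078 in ventricular replicates 1 and 2 against 38140.4 to 49629 in ventricular replicates 3 to 5. Of the fibroblast markers, Pdgfra ran the other way in atrial cells. It had 303 and 223 normalized reads in replicates 1 and 2 against 151 to 153 in replicates 3 to 5. Epicardial markers were lower for 3 of 5. They summed to 2112 to 4954 in atrial replicates 1 and 2 against 3686 to 3768 in atrial replicates 3 to 5, and to 616 to 1046 in ventricular replicates 1 and 2 against 1102 to 1532 in ventricular replicates 3 to 5. Cardiomyocyte markers went the other way, with 4 of 6 higher and 1 lower. Their sums were 420620.0 to 797872 in atrial replicates 1 and 2 against 312933 to 320610.0 in atrial replicates 3 to 5, and 507419 to 656517 in ventricular replicates 1 and 2 against 325124 to 378242 in ventricular replicates 3 to 5. Among them, Ttn had 373180 and 89968 normalized reads in atrial replicates 1 and 2 against 24204 to 30391 in atrial replicates 3 to 5. Tnni3 had 17349 and 17856 against 16883 to 17628 in the same libraries. Atrial markers were higher for 4 of 5. They reached 364071 to 443146 in atrial replicates 1 and 2 against 126650.0 to 141584 in atrial replicates 3 to 5. In ventricular cells they reached 10479.9 to 27849.6 in replicates 1 and 2 against 2640.3 to 2974 in replicates 3 to 5. Endothelial markers were higher for 5 of 7 and lower for 1, with sums of 715 to 3178 in atrial replicates 1 and 2 against 840.2 to 917 in atrial replicates 3 to 5, and of 214 to 1367 in ventricular replicates 1 and 2 against 411 to 507 in ventricular replicates 3 to 5. Immune markers were higher for 2 of 3 tested. Smooth muscle and pericyte markers had 3 of 6 higher and 2 lower, and ventricular markers 2 of 4 higher and 2 lower. The part of these differences in the result was not tested.

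Egr1 showed the widest gap between library sets. It averaged 376 normalized reads in atrial replicates 1 and 2 and 5097 in atrial replicates 3 to 5, 13.5-fold higher in replicates 3 to 5. In ventricular cells it averaged 395 in replicates 1 and 2 and 2209.5 in replicates 3 to 5, 5.60-fold higher in replicates 3 to 5. The log2 differences were -3.75 ± 0.33 in atrial cells (limma, adjusted p = 2.08e-05) and -2.67 ± 0.33 in ventricular cells (adjusted p = 0.000126). Of all tested genes, 0.233% in atrial and 1.98% in ventricular cells had a difference of at least this size. Ier2 followed in atrial cells with -1.44 ± 0.36 (limma, adjusted p = 0.0102), then Fosb with -1.38 ± 0.38 (adjusted p = 0.0157) and Jun with -1.21 ± 0.29 (adjusted p = 0.00742). Atf3 had -1.13 ± 0.34 (limma, adjusted p = 0.0224) and Socs3 -1.15 ± 0.33 (adjusted p = 0.0177). Egr3 in ventricular cells had -1.39 ± 0.42 (limma, adjusted p = 0.0198).

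**Figure D3:**
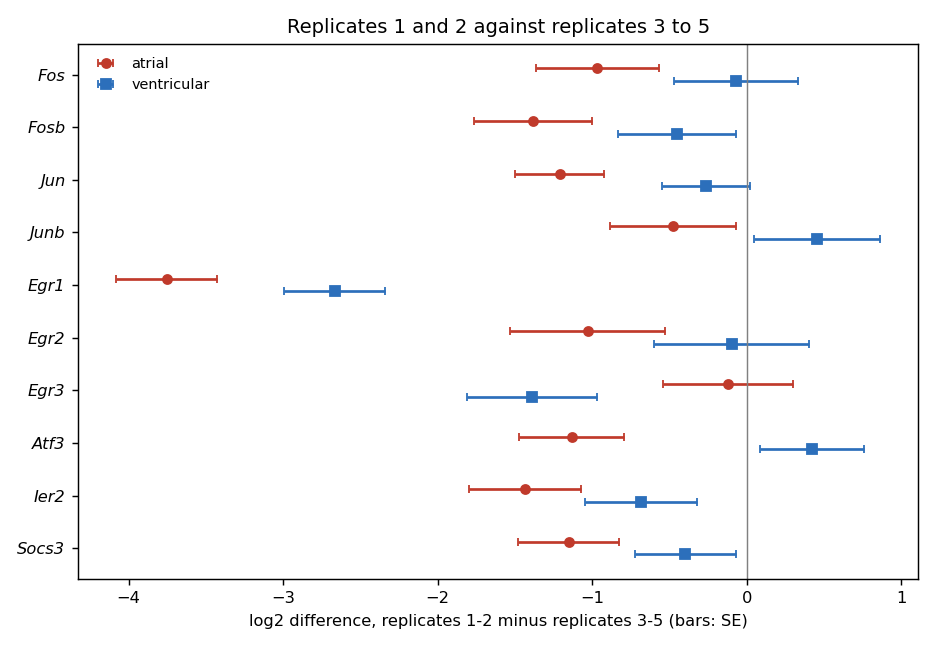
Log2 difference between library sets, replicates 1 and 2 minus replicates 3 to 5, for each gene in atrial and in ventricular cells, with bars of 1 SE. Egr1 lies farthest below 0 in both chambers, and most other genes lie lower in the atrial than in the ventricular comparison.

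The scaling bears on this comparison. Scaling to equal totals, in which the Rn45s reads take part, moved the median over all tested genes to 0.27 and left Egr1 and Ier2 as the genes lower in the mean over chambers, against Fosb, Jun, Egr1, Ier2 and Socs3 with the deposited values. The share of called genes that were higher in replicates 1 and 2 was 71.5% under equal totals, 30.6% under equal totals without Rn45s and Lars2, and 45.6% with the deposited values. Egr1 was called lower under each of these scalings. In atrial cells equal totals left Fosb, Jun, Egr1 and Ier2 as the genes lower, so the calls of Atf3 and Socs3 were lost. In ventricular cells equal totals left Egr1 alone, and the call of Egr3 was lost.

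Replicates 1 and 2 also differed from each other. The level in replicate 2 was above that in replicate 1 for 8 of 10 genes in atrial cells (52.8% of tested genes) and for 9 of 10 in ventricular cells (51.3%). In atrial cells the ratio was 3.45 for Egr2, 2.78 for Atf3, 2.23 for Fos and 2.06 for Jun, and 0.922 for Egr1 and 0.522 for Egr3. In ventricular cells it was 3.30 for Junb, 3.23 for Fosb, 2.91 for Socs3, 2.87 for Egr1 and 2.85 for Fos, and 0.528 for Egr3. Without both libraries numbered 1, a comparison added after the data were seen, 6 genes of ventricular replicate 2 were higher than in ventricular replicates 3 to 5 (Fos, Fosb, Junb, Egr2, Atf3 and Socs3, against 29.1% of tested genes). Their log2 differences included 0.68 for Fos, 1.31 for Junb and 0.36 for Socs3. The lone library is there assumed to vary like the others. Egr1 and Egr3 were lower in that comparison too (34.2% of tested genes). Markers also separated these libraries. Endothelial markers summed to 3178 in atrial replicate 1 and 715 in atrial replicate 2, and to 1367 in ventricular replicate 1 and 214 in ventricular replicate 2. Among them, Pecam1 had 626 and 34.5 normalized reads in atrial and 329 and 26.8 in ventricular replicates 1 and 2. Fibroblast markers summed to 13845 and 21755 in atrial and to 5775 and 14078 in ventricular replicates 1 and 2. Atrial markers summed to 10479.9 in ventricular replicate 1 and 27849.6 in ventricular replicate 2. Their part in these ratios was not tested.

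Whether the difference between library sets was unequal in the 2 chambers, which is the same as an unequal chamber difference in the 2 sets, was tested directly. None of the 10 genes passed (limma, adjusted p below 0.05, against 5.21% of tested genes), and edgeR called none (4.92% of tested genes), while 3 had an unadjusted p below 0.05. DESeq2 called 3 (Egr1, Atf3 and Socs3, against 2.6% of tested genes) and the fit with the replicate block 5 (Fos, Fosb, Jun, Junb and Atf3, against 3.61%), each with a more negative difference in atrial cells. The estimate farthest from 0 was that of Atf3, -1.55 (limma, adjusted p = 0.0987). With replicate 1 or 2 of a chamber left out, the other stands alone in its group. Its spread is then taken from the other groups, so calls are not read there. Over the fits that leave out 1 library, the estimate of Atf3 ran from -2.29 to -0.82. That of Jun ran from -1.47 to -0.43, that of Egr1 from -1.84 to -0.33 and that of Socs3 from -1.52 to 0.0051. Egr3 ran from 0.86 to 1.69.

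Genes of the same pathways, taken from lists of known roles, were compared between chambers in the same way, where 8.12% of all tested genes were higher and 6.56% lower in atrial cells. Of 33 tested other immediate early genes, 6 were higher and none lower in atrial cells by limma, with a median log2 difference of 0.42. At an unadjusted p below 0.05, 3 were lower, and edgeR called 0 and DESeq2 1 lower. With the replicate block 16 were higher and 3 lower, against 16.3% and 16% of tested genes. Among the 6 was Sik1, a kinase of the CREB pathway, with means of 548 ± 76.5 in atrial and 257 ± 47.6 in ventricular cells (1.10 ± 0.14 on the log2 scale, adjusted p = 0.000496, limma). Nfkbiz, a regulator of NF-kappaB targets, had 344 ± 85.3 and 133 ± 38.2 in atrial and ventricular cells (1.39 ± 0.27, limma, adjusted p = 0.00497). Irf1, an interferon response factor, differed by 1.58 and Csrnp1, a nuclear factor of this class, by 1.11. Of 12 other AP-1 and CREB factors none was called in either direction by limma, edgeR or DESeq2 (median 0.12). At an unadjusted p below 0.05, 3 were higher, and with the replicate block 1 was higher.

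Of 17 tested feedback regulators, 3 were higher and 2 lower in atrial cells, against 8.12% and 6.56% of all tested genes (median 0.19). With the replicate block 6 were higher and 5 lower, against 16.3% and 16%. Dusp5 (1.32) and Dusp6 (0.97), phosphatases of ERK, and Nab2 (0.87), a corepressor of EGR factors, were higher. Spry1, an inhibitor of growth factor signalling, was lower at -1.66 ± 0.27 (limma, adjusted p = 0.00216). Of 23 upstream genes of serum response factor and MAP kinases, 2 were higher (Rps6ka1, 2.16, and Rps6ka5, 0.93) and Map2k1 was lower (-0.54), with a median of 0.07, and with the replicate block 4 were higher and 3 lower. Rps6ka1 had means of 33.3 in atrial and 7.86 in ventricular cells (normalized reads) and passed the filter of a mean of 10 only through its atrial values. Of 19 genes of the SOCS family and gp130 signalling, Stat5b (0.92) and the cytokine gene Ctf1 (1.02) were higher and none was lower by limma, edgeR, DESeq2 or at an unadjusted p below 0.05 (median 0.09). With the replicate block 4 were higher and Pim1 was lower. Ctf1, with means of 19.3 in atrial and 9.19 in ventricular cells, likewise passed the filter only through its atrial values. In both lists the share called higher by limma was near the 8.12% of all tested genes.

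The stress response lists are read against the same 8.12% higher and 6.56% lower of all tested genes, and 16.3% and 16% with the replicate block. None of 11 integrated stress response genes was called in either direction by limma, edgeR or DESeq2 (median 0.14), and at an unadjusted p below 0.05, 1 was higher and 1 lower. With the replicate block Ppp1r15a was higher and Eif2ak4 lower, genes of a phosphatase subunit and a kinase that act on a translation initiation factor. Of 12 heat shock genes, 1 was lower, the mitochondrial chaperonin gene Hspd1 (-0.85), and with the replicate block 5 were lower (median -0.08). Of 13 secondary response genes 3 were higher, namely the chemokine gene Ccl2 (1.89), the prostaglandin synthase gene Ptgs2 (2.77) and Timp1 (1.33), an inhibitor of metalloproteases, with a median of 0.26, and with the replicate block 5 were higher. Ccl2 and Ptgs2 had few reads and passed the filter only through their atrial values, with atrial means of 27.4 and 35.7 and ventricular means of 7.18 and 3.76 normalized reads.

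**Figure D4:**
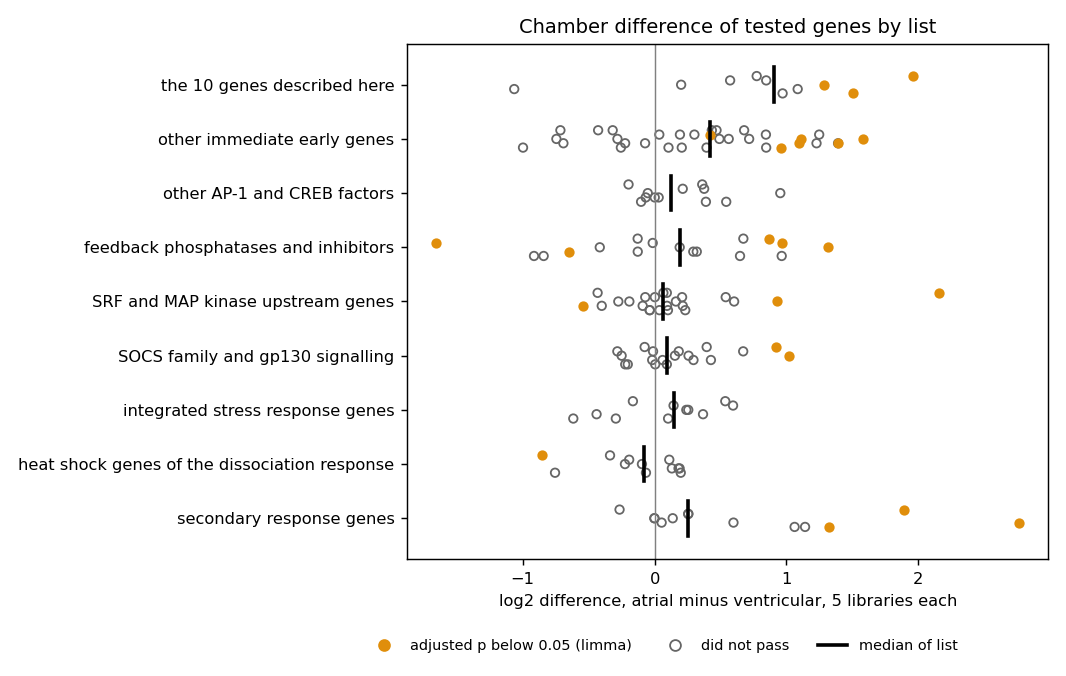
Log2 difference between chambers, atrial minus ventricular, for each tested gene of the 10 genes and of each pathway list, with the median of each list. The 10 genes have a median of 0.91, and the medians of the lists lie between -0.08 and 0.42.

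Between library sets, taken as the mean over chambers, the lists went in both directions. In replicates 1 and 2, 9 of 33 other immediate early genes were higher and 12 lower, among them Plk2 (1.81) and Gadd45g (1.29) higher and Phlda1 (-2.47) and Tob1 (-2.08) lower. Of the feedback regulators 10 of 17 were lower and none higher by limma (1 higher at an unadjusted p below 0.05, 3 by edgeR and 2 by DESeq2), with Zfp36l1, an RNA-binding protein that promotes mRNA decay, at -1.91. Of the integrated stress response genes 6 were higher and 5 lower, and of the secondary response genes 5 were higher and 2 lower. Heat shock genes had 3 higher and 6 lower, upstream genes of serum response factor and MAP kinases 5 higher and 12 lower, genes of the SOCS family and gp130 signalling 6 higher and 8 lower, and other AP-1 and CREB factors 2 higher and 5 lower. Over all tested genes 26.1% were higher and 31.2% lower.

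The genes with the most similar pattern across the 10 libraries were ranked among 7327 others that averaged 100 normalized reads or more. Likeness was the mean absolute difference between a gene's centred log2 values and the median profile of the 10 genes, for which the median candidate had 0.697. Nfkbiz was nearest with 0.200, followed by Ier3 with 0.228, Tnk2 with 0.244, Sv2a with 0.252, Krt222 with 0.256 and Tnnt1 with 0.262. Of the 10 genes themselves, Fosb (0.108) and Fos (0.113) lay nearest to their common profile, and Egr1 (1.18) and Egr3 (1.28) lay farthest.

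Markers of other cells were detected in both chambers and differed between them. Epicardial markers summed to 2112 to 4954 normalized reads in atrial and 616 to 1532 in ventricular libraries, and 4 of 5 were higher in atrial cells. Endothelial markers summed to 715 to 3178 and 214 to 1367 in atrial and ventricular libraries, with 2 of 7 higher in atrial cells. Within replicates 3 to 5 they split. Kdr had 318 to 375 normalized reads in atrial and 55.8 to 89.6 in ventricular libraries, and Tek 495 to 530 and 314 to 379. Pecam1 ran the other way, with 3.86 to 5.11 in atrial and 9.91 to 14.7 in ventricular libraries. So did Cdh5, with 4.13 to 7.95 and 19.4 to 27.2. Tie1, Emcn and Vwf overlapped there. Fibroblast markers summed to 13845 to 32936 in atrial and 5775 to 49629 in ventricular libraries, with 2 of 7 lower in atrial cells. Immune markers summed to 83.7 to 175 in atrial and 24.8 to 145 in ventricular libraries, with 1 of 3 tested higher in atrial cells. Smooth muscle and pericyte markers summed to 1459 to 5207 in atrial and 9099.8 to 15379.9 in ventricular libraries, with 3 of 6 lower in atrial cells. Neural markers summed to 39.3 to 92.4 in atrial and 30.7 to 65.8 in ventricular libraries, and no marker was at 0 in all libraries. Their part in the differences between chambers was not tested.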

How the data were processed

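Per the labels' protocols, total RNA was extracted with Trizol and made into ScriptSeq v2 libraries, and per the submitters' processing notes Trimmomatic, HISAT2 and featureCounts were used on GRCm38 (mm10), with versions, annotation and strand setting not given in the sources used here. Each deposited value is a signal: reads of a gene after division by the library's DESeq2 size factor, per the file headers. Whole reads were recovered for 100% of values within a tolerance of 0.01, and 2231 symbols were at 0 in every library. The 12422 genes averaging 10 or more normalized reads were tested with limma 3.58.1 (R 4.3.3, trend and robust variance, two-sided) on log2(value + 1), which understates changes of low genes, with Benjamini-Hochberg adjustment at 0.05. Differences are atrial minus ventricular, and replicates 1 and 2 minus replicates 3 to 5 in a fit with 4 groups. On the recovered reads edgeR 4.0.16 called 1995 genes between chambers and DESeq2 1.42.0 called 2575, against 1824 with limma. The limma procedure was tested on simulated data with the libraries' own depths and the same spread in every library. False calls there stayed within the threshold between chambers but exceeded it between library sets (mean over chambers). In the data the 10 genes spread more in replicates 1 and 2 than in replicates 3 to 5. The simulation therefore does not give the share of false calls in these data, and the cause of the excess was not tested.

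Floors of 3 reads cover counting error alone: without molecular identifiers, reads are not independent molecules. No 2 replicate libraries of a set agreed within sampling noise (chi-square per gene of 2.24 to 25.8), so all were counted separately. The replicate numbers were treated as pairing the libraries, because deviations from the chamber means correlated by 0.556 to 0.637 in each pair. Most of this follows the division into library sets, without which the correlations were 0.405 for replicates 1 and 2 and -0.0394 to 0.0678 for the others.

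The 10 genes and all lists were chosen with earlier results of these data known. Named genes are the 10, up to 4 called genes per list and comparison with the smallest adjusted p (where no gene was called, up to 2 of smallest p), the 6 genes of most similar pattern, and Rn45s and Lars2; not all are printed. Alternatives were other pseudocounts, filters and scalings, the replicate block, library set as a term, each set alone, each library left out, edgeR and DESeq2.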

Additional observations from a re-analysis of the deposited data

Results flagged for a closer look

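Of 20 groups of 5 libraries, 1 per gene and chamber, 4 held a value whose gap to its nearest neighbour was more than 0.71 of the range. Chance passes that limit in about 1 in 20 groups of 5 independent values from 1 normal distribution. The groups here mix library sets that differ and share libraries between genes, so 4 of 20 cannot be set against that rate. Junb in atrial replicate 1 was the lowest atrial value at 282.743 normalized reads, with a gap of 0.902 of the range. Junb in ventricular replicate 2 was the highest ventricular value at 570.35 normalized reads, with a gap of 0.764 of the range. Egr2 in atrial replicate 1 was the lowest atrial value at 35.8601 normalized reads, with a gap of 0.807. Ier2 in ventricular replicate 1 was the lowest ventricular value at 69.1974 normalized reads, with a gap of 0.785. The 4 values come from replicates 1 and 2.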

How the results depend on the processing

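Between chambers, Socs3, Atf3 and Egr2 were called under each pseudocount, filter and scaling tried, with the replicate block, with library set as a term and with edgeR and DESeq2. The block raised the genes called to 4017 (against 1824) and the members called to 7 higher and 1 lower, and its fit of the chamber-by-set difference called 1272 genes, 5 members negative. Library set as a term gave 3955 genes, 5 higher and 1 lower; replicates 1 and 2 alone 638 genes and 0 members; replicates 3 to 5 alone 6561 genes, 9 higher and 1 lower. Without both libraries numbered 1, 5 members were higher between chambers, and the chamber-by-set difference had 3321 genes and 8 negative members. That chamber-by-set fit leaves 1 library in each group of replicates 1 and 2, so its calls are not read. edgeR called 1 lower, DESeq2 5 higher and 1 lower, and DESeq2 3 negative in the chamber-by-set difference.

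Leaving out 1 library gave 1 to 6 members higher and 0 to 1 lower between chambers, and 212 to 1686 genes with 0 to 5 negative members in the chamber-by-set difference. Members lower between library sets were then 1 to 8 in atrial cells, 1 to 4 in ventricular cells, where 0 to 2 were higher, and 5 to 8 in the mean over chambers. With replicate 1 or 2 of a chamber left out, the other stands alone in its group, and calls in those set and chamber-by-set fits are not read. The chamber-by-set difference of Socs3 ran from -1.52 to 0.0051. Set differences turned for Egr3 in atrial cells (-0.53 to 0.30), in the mean over chambers for Junb (-0.44 to 0.42) and Atf3 (-0.72 to 0.012), and in ventricular cells for Egr2 (-0.79 to 0.60), Fos (-0.83 to 0.68), Fosb (-1.29 to 0.39), Ier2 (-1.43 to 0.067), Jun (-0.68 to 0.16), Junb (-0.40 to 1.31) and Socs3 (-1.16 to 0.36).

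Jun between chambers was -0.37 in replicates 1 and 2 alone. Under equal totals the set difference became 0.15 for Egr3 in atrial cells, 0.30 for Junb in the mean, and 0.25 for Fos, 0.063 for Jun and 0.22 for Egr2 in ventricular cells, with 2 members lower in the mean and 1 in ventricular cells. Junb in the mean was 0.015 with TMM scaling, 0.19 with edgeR and 0.17 with DESeq2. In ventricular cells Fos was 0.15 with edgeR and 0.15 with DESeq2, and Egr2 0.16 and 0.12. A mean of at least 50 and DESeq2 each left 1 member lower in ventricular cells. Without both libraries numbered 1, the difference in the mean was 0.15 for Fos, 0.64 for Junb, 0.22 for Egr2 and 0.15 for Atf3. In ventricular cells it was then 0.68 for Fos, 0.39 for Fosb, 0.16 for Jun, 0.60 for Egr2, 0.067 for Ier2 and 0.36 for Socs3. These set fits leave 1 library in each group of replicates 1 and 2, so their calls are not read. The cause was not tested. Few reads limit Egr3 most.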

Other observations

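Summed over the 10 genes, the levels in atrial replicates 1 to 5 were 3983, 7635, 15731, 15878 and 16384 normalized reads, against 3190.0, 7376, 6442, 7786 and 7377 in ventricular replicates 1 to 5. Among replicates 1 and 2, the sums of same-numbered libraries lay nearer to each other than to the other number, and replicate 2 lay above replicate 1 in both chambers. Atrial replicates 3 to 5 lay above all other libraries. As a share of the reads without Rn45s, the sums came to 0.0652%, 0.137%, 0.298%, 0.302% and 0.311% in atrial replicates 1 to 5, against 0.0517%, 0.123%, 0.115%, 0.145% and 0.133% in ventricular replicates 1 to 5. Ventricular replicate 1 held the lowest value for 7 of the 10 genes and also had the fewest reads, and the number of genes with reads was 21576 in atrial replicate 1 and 19232 in ventricular replicate 1 against 15950 to 16618 in the other libraries.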
